A study of Mus musculus with 9 samples.

Results

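Knockout of Ndufa4l2 was compared with the empty-vector control in RENCA, a mouse renal carcinoma cell line, across all genes of the deposited count table. The 6 libraries of this comparison are 3 empty-vector and 3 knockout libraries out of 9 in the series. The other libraries, 3 of rescue cells, entered the model for the estimate of the spread and are quoted only as reference levels. Empty-vector cells carried the wild-type gene, per the labels. For the knockout, colonies raised from single cells were edited with 1 guide in PX458, a plasmid that carries Cas9, and were screened by qPCR. Rescue cells were transduced with a lentivirus that expresses Ndufa4l2 and a puromycin resistance gene, and were selected with puromycin. All cells were grown in supplemented RPMI medium. The labels say neither how many colonies the knockout libraries stand for nor whether the control cells went through a cloning step. Loss of the gene, editing and the choice of colonies can therefore not be told apart. The labels do not say that replicates were separate cultures, so p-values rest on the spread among these libraries, part of which may be technical.

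Ndufa4l2 encodes a small mitochondrial protein related to Ndufa4, a subunit associated with cytochrome c oxidase. It is a target of hypoxia-inducible factors and is strongly expressed in clear cell renal carcinoma, where loss of the von Hippel-Lindau protein keeps those factors active. It is known for lowering mitochondrial oxygen use and the formation of reactive oxygen species. Mitochondria, lysosomes and the endoplasmic reticulum each report on their state to the nucleus through dedicated transcription factors, and the gene groups below follow those compartments and the surface and signalling proteins of the cell.

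The guide lies over the start of the coding sequence. Its target is printed because its position decides what RNA can show of the edit. The site reads 5′ to 3′ on the plus strand, at chr10:127514980-127514999 of GRCm38, with the PAM in capitals:
Ndufa4l2 target site: agatggcaggaactagtctaGGG
The site lies in exon 1 (127514967 to 127515038) and covers the start codon at 127514982 to 127514984. Cas9 cuts between bases 127514996 and 127514997. Among annotated GENCODE transcripts the guide matched 3 transcripts, all of 1 gene, and no other gene held the site with up to 3 mismatches and a following NGG. Introns and intergenic sequence were not searched.

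Ndufa4l2 stood at 0.533, 0.386 and 0.642 CPM (CPM being counts scaled to library depth) in the empty-vector libraries and at 0.445, 0.661 and 0.253 CPM in knockout. The groups overlapped, with a log2 change of -0.36 ± 0.42 (SE; edgeR adjusted p of 0.47), which is no detectable difference with so few counts. A small edit at the cut, just past the start codon, need not lower the mRNA, so this level does not check the knockout label. The rescue libraries held 2.60, 2.63 and 2.20 CPM. Shmt2, on the opposite strand, shares its last bases with those of Ndufa4l2, and the labels do not say whether reads were counted by strand. The paralogue Ndufa4 stood at 113, 103 and 101 CPM in empty vector and 115, 120.1 and 111 in knockout, with a log2 change of 0.13 ± 0.06 (edgeR adjusted p of 0.1). Its groups overlapped.

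Library totals ran from 14685134 to 24172162 counts in empty vector and from 13106531 to 25305299 in knockout. Genes of the mitochondrial genome took 2.16% to 3.17% of the counts in empty vector, 5.79% to 7.93% in knockout and 2.24% to 2.65% in rescue. The 10 most abundant genes took 4.23% to 5.14% of the counts in empty vector and 8.10% to 10.1% in knockout. The mitochondrial share, which RNA quality can also alter, moved with the group. Scaling without genes of the mitochondrial genome gave 3941 genes higher and 4137 lower, beside 3935 and 4143 in the reported fit. Any other part of this share in the results that follow was not tested.

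Of 13326 genes tested, 3935 were higher in knockout (29.5%) and 4143 lower (31.1%), together 60.6%. The knockout and empty-vector libraries did not overlap in 63.7% of the tested genes, with knockout above in 30.8% and below in 32.8%. The median change over all genes was -0.02 on the log2 scale, with quartiles at -0.36 and 0.38, and called genes had a median size of 0.54. Changes of at least 1 log2 unit were upward in 1083 genes (8.13%) and downward in 523 (3.92%). A test against a 1.5-fold minimum called 1312 genes higher (9.85%) and 770 lower (5.78%). Scaling by library totals alone lowered the median of all genes by 0.15, so that 2906 genes were higher and 5544 lower, and the higher share of the calls went from 48.7% to 34.4%. On that scale 839 genes were higher and 835 lower by at least 1 log2 unit, and 967 were higher and 1266 lower beyond 1.5-fold. The upward excess of large changes was therefore not seen with library totals alone. Protein-coding genes were called in 65.3% of 11354 cases, long noncoding RNAs in 35.3% of 889 and pseudogenes in 34.8% of 848. The called share also rose with level, from 29.1% under 1 CPM to 76.7% over 100 CPM. Calls of at least 1 log2 unit were upward in 906 and downward in 387 protein-coding genes. They were upward in 105 and downward in 66 long noncoding RNAs, and in 42 and 60 pseudogenes.

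**Figure D1:**
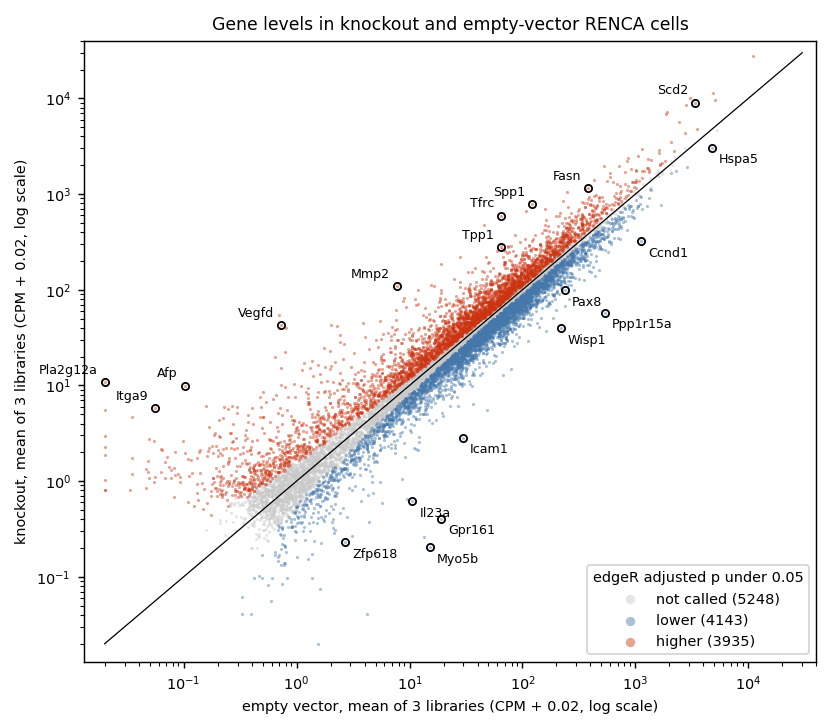
Mean level of each tested gene in empty vector (horizontal) and knockout (vertical), each over 3 libraries, in CPM with 0.02 added, on log scales; red and blue mark genes called higher and lower, and the line marks equal levels. Most genes lie near the line, while Pla2g12a, Itga9 and Afp at the left and Myo5b, Gpr161 and Icam1 below it lie far away.

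The largest increases were in genes near silence in the empty-vector cells. Pla2g12a, a secreted phospholipase A2, had no count in empty vector and 10.9, 11.6 and 10.1 CPM in knockout, which is at least 228-fold higher when 3 counts over the empty-vector group are taken as its floor. Prrg1, a membrane protein with a vitamin K-dependent Gla domain, also had no count in empty vector and stood at 5.40, 5.87 and 5.10 CPM in knockout, at least 115-fold higher. Itga9, an integrin subunit that binds tenascin and osteopontin, had 2 counts over the empty-vector libraries and 5.72, 5.95 and 5.52 CPM in knockout. Afp, alpha-fetoprotein of fetal serum, stood at 0.0888, 0 and 0.161 CPM in empty vector and 8.77, 10.2 and 10.7 in knockout. This ranking took only genes whose groups did not overlap, so the separation is no added result. In rescue the mean levels were 0.0119, 0, 0.0301 and 0.208 CPM, in the same order.

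Vegfd, a growth factor for lymphatic vessels, went from 1.24, 0.322 and 0.562 CPM to 38.2, 46.2 and 43.7 CPM, a log2 change of 5.83 ± 0.20 (SE; edgeR adjusted p of 2.9e-13). Olfml3, a secreted matrix protein, rose from 0.843, 0.322 and 0.883 to 40.7, 41.1 and 37.0 CPM, and Bco1, which cleaves beta-carotene, from 0.888, 0.772 and 0.682 to 42.4, 37.6 and 38.3 CPM. These 3 genes were ranked under the same condition of no overlap. Spon2, a secreted matrix protein, rose by 5.36 ± 0.34 log2 units, Igsf11, an adhesion molecule of the immunoglobulin family, by 5.01 ± 0.18, and the glutathione transferase Gsta1 by 4.80 ± 0.34. Ugt1a6b, which conjugates glucuronic acid to small molecules, rose by 4.77 ± 0.38. The Gsta and Ugt1a genes have near-identical copies that can share reads, so their single values are uncertain.

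By the rule of a mean under 0.5 CPM in one group and at least 5 CPM in the other, 14 genes were switched on in knockout and 3 were switched off. Besides Pla2g12a, Afp, Prrg1, Itga9, Spon2 and Ugt1a6b, those on were Trabd2b, an inhibitor of Wnt ligands, the retinol carrier receptor homologue Stra6l, the collagen chain Col6a2, Bmf, a pro-apoptotic Bcl2 family member, the calcium-binding S100g, the bone and microglial membrane protein Tmem119, and the predicted genes Gm7535 and G630018N14Rik. Of the 14, 12 stood under 0.5 CPM in rescue. Gm7535 stood at 5.94 CPM there and Bmf at 1.30 CPM. Gm7535 was also the weakest call, with an edgeR adjusted p of 0.014 that became 0.057 without empty-vector replicate 3. The genes off in knockout were Gpr161, Myo5b and the noncoding RNA Eprn, and each stood at 5 CPM or more in rescue, at 14.0, 6.04 and 14.5 CPM. Rescue cells are described as derived from the knockout.

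The largest decreases included a motor of vesicle transport, a ciliary receptor and several genes of cytokine signalling. Myo5b, a myosin that carries recycling endosomes, fell from 14.0, 16.7 and 14.8 CPM to 0.381, 0 and 0.169 CPM, a log2 change of -6.24 ± 0.28 (edgeR adjusted p of 7e-13). Gpr161, a receptor of the primary cilium that restrains Hedgehog signalling, fell from 19.1, 20.2 and 18.2 to 0.572, 0.248 and 0.337 CPM. Il23a, the p19 subunit of interleukin 23, fell from 10.4, 10.7 and 10.6 to 0.826, 0.248 and 0.716 CPM. The groups were separated in each case, with knockout libraries at or below 0.826 CPM.

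Icam1, which leukocytes bind through their integrins, fell from 30.3, 28.4 and 29.9 to 3.62, 2.64 and 2.23 CPM (-3.41 ± 0.13 log2 units, edgeR adjusted p of 9.2e-14). Il13ra1, a receptor chain for interleukins 4 and 13, fell from 53.4, 45.6 and 45.7 to 6.04, 6.03 and 4.30 CPM. Traf5, an adaptor of tumour necrosis factor receptors, fell from a mean of 9.42 to 0.632 CPM, a log2 change of -3.73 ± 0.26. Further decreases were in Ddah1, which breaks down an inhibitor of nitric oxide synthase (-3.03 ± 0.18), the gamma-secretase subunit Aph1c (-2.55 ± 0.10), the integrin chain Itgb6 (-2.47 ± 0.19), Mum1l1 (-3.31 ± 0.23) and the Wnt-induced matrix protein Wisp1 (-2.47 ± 0.08). Wisp1 was the most abundant of these and went from 238, 204 and 212 to 40.6, 39.8 and 37.7 CPM.

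Gains in CPM were ranked among protein-coding genes outside the mitochondrial genome. Several mRNAs of that genome had larger differences in CPM and are counted further on. Scd2, a stearoyl-CoA desaturase, gained most among the ranked genes, from 4310, 2751 and 3073 CPM to 9488, 9216 and 8288 CPM, and its relative Scd1 went from 1378, 973 and 1060 to 3021, 3034 and 2766 CPM. Psap, the precursor of the saposins that present lipids to lysosomal enzymes, went from 5351, 4912 and 5048 to 9284, 9936 and 9594 CPM. The groups did not overlap for any of the 3. Tmbim6, an inhibitor of Bax in the endoplasmic reticulum, rose by 1.21 ± 0.14 log2 units, the pentose phosphate enzyme Tkt by 1.50 ± 0.12 and the taurine transporter Slc6a6 by 1.39 ± 0.08. The glutamine transporter Slc38a2 rose by 0.67 ± 0.10, and the integrin chain Itgb5 from 628, 479 and 484 to 2012, 2097 and 1828 CPM.

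The largest losses in CPM, ranked in the same way, were led by 2 chaperones. Hspa5, the BiP chaperone of the endoplasmic reticulum, went from 4315, 4861 and 5002 CPM to 3060, 3125 and 2890 CPM, and Hspa9, its mitochondrial counterpart, from 1589, 1739 and 1757 to 825, 735 and 754 CPM. Ccnd1, the G1 cyclin D1, fell from 1095, 1128 and 1167 to 353, 284 and 327 CPM, a log2 change of -1.81 ± 0.08 (edgeR adjusted p of 6.7e-13). All 3 knockout libraries lay below all 3 empty-vector libraries for each of these genes. Ppp1r15a, the phosphatase subunit that reverses phosphorylation of eIF2 alpha, fell from 477, 553 and 573 to 60.3, 56.8 and 55.2 CPM. The log2 change was -0.56 ± 0.10 for the ER oxidase Ero1l, and the ATP synthase subunit Atp5b changed by -0.39 ± 0.08, the copper-binding ferroxidase Cp by -0.77 ± 0.07, and the ribosomal protein genes Rpl7 by -0.70 ± 0.07, Rpl41 by -0.54 ± 0.10 and Rpl12 by -0.98 ± 0.07.

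**Figure D2:**
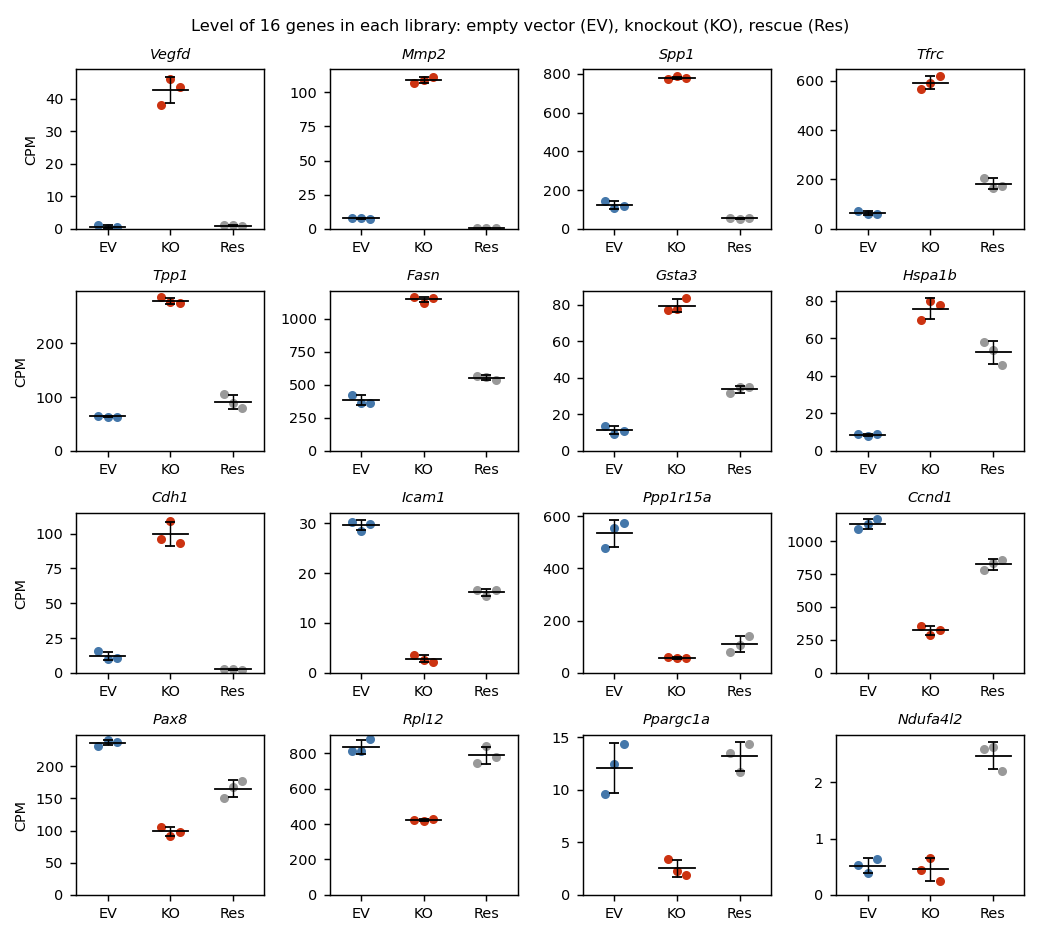
Level of 16 genes in each library (CPM, vertical axes from 0) in empty vector (EV), knockout (KO) and rescue (Res); points are libraries, bars the mean and SD of 3. Knockout and empty vector do not overlap except for Ndufa4l2. Rescue lies near empty vector for Vegfd and Rpl12 and between the groups for Icam1 and Tfrc. It lies below both groups for Mmp2, Spp1 and Cdh1, and nearer to knockout than to empty vector for Ppp1r15a and Hspa1b.

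Gene groups were described with 50 lists, by how many tested members rose, fell or did not pass and by the median log2 change. Each count is to be read against 29.5% higher and 31.1% lower over all tested genes. Values given as a number ± its SE are log2 changes, knockout minus empty vector. More members rose than fell in 29 of the 50 lists, and in 23 with library totals alone.

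**Figure D3:**
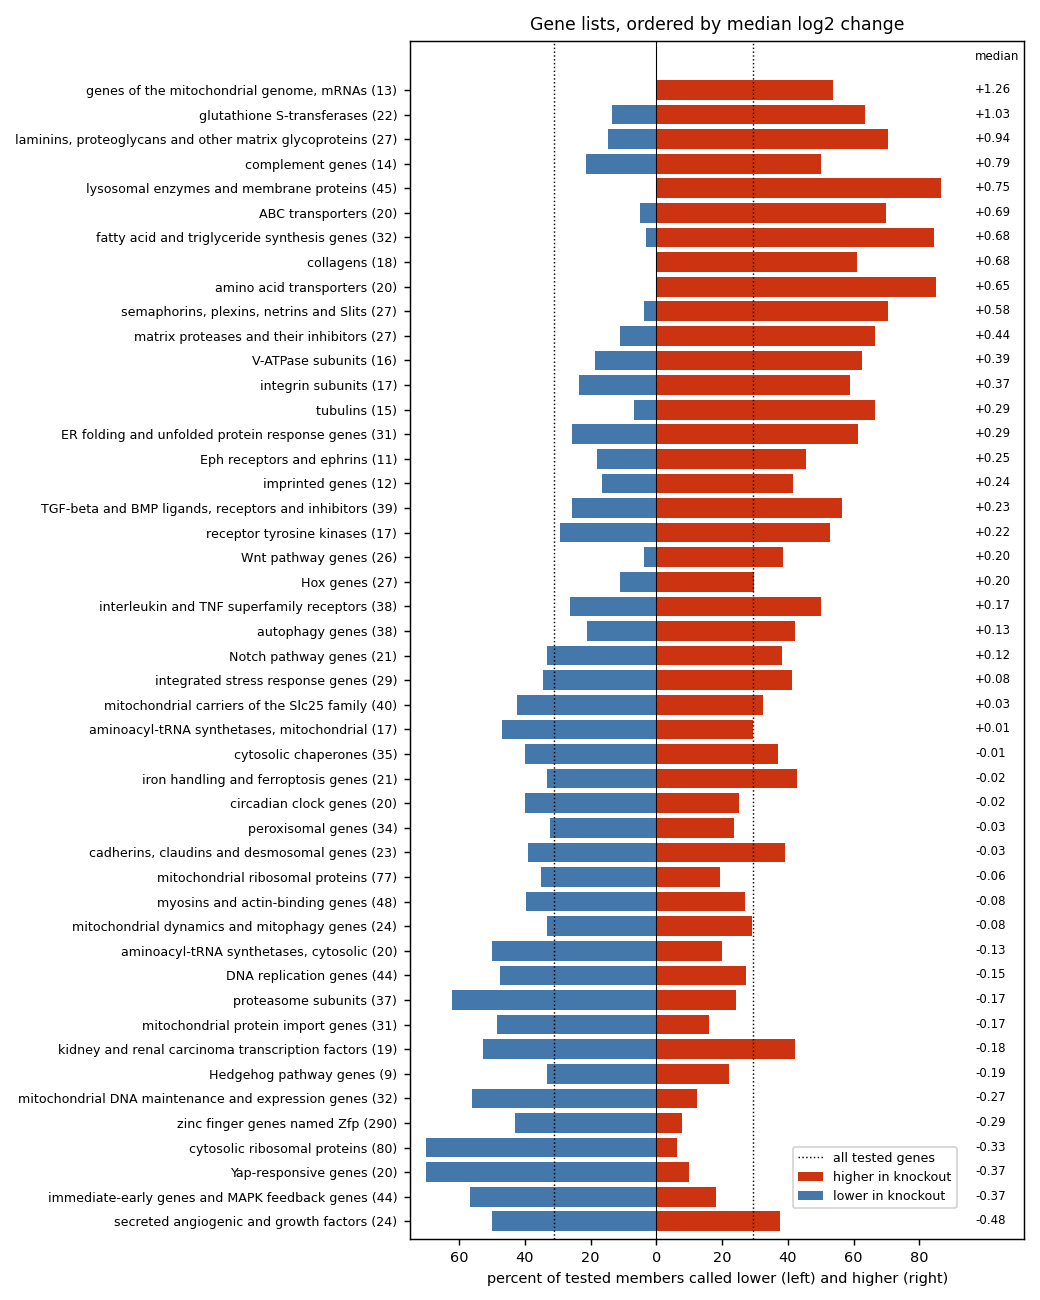
Percent of tested members called higher (red, right) and lower (blue, left) in knockout for lists with at least 9 tested members (number in brackets), ordered by median log2 change, which is printed at the right; dotted lines mark 29.5% higher and 31.1% lower, the shares over all tested genes. Lysosomal genes show 39 of 45 higher and none lower, and cytosolic ribosomal proteins 5 of 80 higher and 56 lower.

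Lysosomal genes rose as a group. Of 45 tested lysosomal enzymes and membrane proteins, 39 rose, none fell and 6 did not pass, with a median of 0.75. Their summed level was 15960 to 18770 CPM in empty vector, 28920 to 30500 in knockout and 13860 to 14740 in rescue. Tpp1, a lysosomal peptidase, went from 65.2, 63.9 and 63.0 CPM to 286, 278 and 276 CPM (2.13 ± 0.08, edgeR adjusted p of 9.4e-14). Grn, the granulin precursor, went from 1202, 942 and 986 to 2581, 2576 and 2386 CPM. Gm2a, an activator of ganglioside breakdown, rose by 1.39 ± 0.09 log2 units and the glucuronidase Gusb by 1.20 ± 0.08. Among members chosen after their values were seen, the acid lipase Lipa rose by 1.69 ± 0.12, the protease Ctsb by 1.35 ± 0.10 and the membrane protein Lamp1 by 1.15 ± 0.09. Members that did not pass included Gaa (-0.10 ± 0.08), Lgmn (0.01 ± 0.08), Ids (0.03 ± 0.08), Naglu (0.05 ± 0.06) and the calcium channel Mcoln1 (0.06 ± 0.07).

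Of the 16 subunits of the V-ATPase, the proton pump that acidifies lysosomes, 10 rose and 3 fell, 6 with library totals alone. Atp6v0a1 rose by 0.75 ± 0.08, Atp6v0d1 by 0.64 ± 0.07 and the accessory subunits Atp6ap2 by 0.63 ± 0.07 and Atp6ap1 by 0.58 ± 0.06. Of 38 autophagy genes, 16 rose and 8 fell, with a median of 0.13 that was -0.03 with library totals alone, when 13 fell. Gabarapl1, an Atg8-type protein of autophagosome membranes, rose from 31.4, 28.8 and 28.8 to 72.1, 77.4 and 79.1 CPM. Ulk1, the kinase that starts autophagy, rose by 0.98 ± 0.08, Atg2a, which transfers lipids, by 1.11 ± 0.08 and Pik3r4 by 0.84 ± 0.07.

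The transcription factors TFEB, TFE3 and MITF bind E-boxes of the CLEAR type near the starts of lysosomal genes. The letters TCACGTG, on either strand, were searched in RefSeq promoter windows (250 bases before to 50 after a start, GRCm38.p6). Overlapping matches on both strands arise because the core is palindromic. Promoters matched 9438 of 13322 tested gene symbols and numbered 12073. The motif was found in 5.96% of them, in 12 of 44 promoters of lysosomal genes (27.3%) and in 4 of 13 V-ATPase promoters. Upstream of the start alone it was found in the same number of lysosomal promoters, 12, and in 2 of the V-ATPase promoters. It was found in 5.02% of promoters of genes higher by at least 1 log2 unit and in 2.87% of those lower by at least 1. Promoters matched 36 of the 45 tested lysosomal genes, and the calls among these 36 were not counted. The 12 lysosomal genes with the motif upstream of a start include 8 that rose and 4 of the 6 that did not pass. The following 30-base windows, 5′ to 3′ on the strand of the gene, with the motif in capitals, show the site in genes that rose and, in the last 2, in genes that did not pass:
Lamp1: ggcacgtgaccacaTCACGTGcggaacgga
Ctsa: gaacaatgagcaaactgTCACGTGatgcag
Ctsd: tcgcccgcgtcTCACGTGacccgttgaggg
Gla: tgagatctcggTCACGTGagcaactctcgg
Cln3: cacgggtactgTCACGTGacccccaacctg
Mcoln1: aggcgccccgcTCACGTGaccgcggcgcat
Naglu: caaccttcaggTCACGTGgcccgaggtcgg
They lie at chr8:13159131-13159160 (plus strand) for Lamp1, chr2:164833743-164833772 (plus) for Ctsa, chr7:142387908-142387937 (minus) for Ctsd, chrX:134601182-134601211 (minus) for Gla and chr7:126583340-126583369 (minus) for Cln3. Those of Mcoln1 and Naglu lie at chr8:3500462-3500491 and chr11:101070009-101070038, both plus. The cathepsin genes Ctsa and Ctsd rose by 0.90 ± 0.07 and 0.81 ± 0.09, the galactosidase Gla by 1.13 ± 0.09 and Cln3 by 0.83 ± 0.12. Capitals mark 1 match in each window. The Lamp1 window also holds CACGTGA in lower case, a separate match on the other strand. A match is a description of these letters and not a measured binding site.

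Lipid synthesis genes also rose together. Of 32 tested genes of fatty acid and triglyceride synthesis, 27 rose and 1 fell, with a median of 0.68. Fasn, the fatty acid synthase, went from 425, 364 and 358 CPM to 1161, 1122 and 1153 CPM (1.58 ± 0.07, edgeR adjusted p of 1.5e-12). Acacb, an acetyl-CoA carboxylase, rose by 1.45 ± 0.07 log2 units, the phosphatidate phosphatase Lpin1 by 1.92 ± 0.09, and Dgat1, which makes triglycerides, by 1.17 ± 0.07. The acyltransferase Agpat1 was the member that fell (-0.42 ± 0.06, chosen after its value was seen). With library totals alone 4 fell. Of 34 peroxisomal genes, 8 rose and 11 fell, near the shares over all tested genes. The rises numbered 4 with library totals alone and 5 without a filter, without empty-vector replicate 2 or 3 and without knockout replicate 3. Catalase (Cat) rose by 1.00 ± 0.07 and the transporter Abcd4 by 1.07 ± 0.08, while the import factors Pex14 and Pex3 changed by -0.88 ± 0.07 and -0.88 ± 0.09.

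Glutathione S-transferases, which attach glutathione to reactive compounds, had 14 of 22 tested members higher and 3 lower, with a median of 1.03. Gsta3 went from 13.8, 9.32 and 10.7 CPM to 77.1, 77.5 and 83.6 CPM (2.81 ± 0.10, edgeR adjusted p of 2.6e-13) and Gstm1 from 36.5, 31.3 and 33.1 to 109, 102 and 109 CPM. Neither overlapped between the groups. Gsta4 rose by 2.59 ± 0.13 and the microsomal Mgst2 by 1.49 ± 0.08. The 3 that fell, named after their values were seen, were Gsto1 (-1.39 ± 0.14), Gstz1 (-0.76 ± 0.10) and Gstt2 (-0.26 ± 0.10). Near-identical Gsta and Gstm copies can share reads. The antioxidant response element TGACNNNGC, the site of NRF2, was found in 4 of 30 promoters of these genes (13.3%) and in 14.35% of promoters of tested genes. It is shown for Gsta3, at chr1:21240454-21240483 of GRCm38.p6 on the plus strand, in capitals:
Gsta3: aactcaggcaTGACATTGCatttttcttct

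Iron handling genes moved in both directions, 9 of 21 higher and 7 lower. Tfrc, the transferrin receptor that brings iron into cells, went from 73.1, 58.5 and 62.0 CPM to 565, 590.4 and 618 CPM (3.19 ± 0.10, edgeR adjusted p of 3.1e-14). The ferroxidase Heph rose by 1.32 ± 0.07 log2 units and the ferric reductase Steap3 by 1.29 ± 0.08. Dhodh, a mitochondrial enzyme of pyrimidine synthesis that also limits lipid peroxidation, changed by -1.10 ± 0.08. Fbxl5, which directs the breakdown of iron regulatory protein 2, changed by -0.85 ± 0.06; it was named after its value was seen. With library totals alone 11 members were lower.

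Most tested genes of amino acid and ABC transporters rose. Of 20 tested amino acid transporters, 17 rose and none fell (2 with library totals alone), with a median of 0.65. The glutamine transporters Slc38a1 and Slc1a5 rose by 1.64 ± 0.08 and 1.58 ± 0.09, and Slc43a2, which carries branched-chain amino acids, by 1.27 ± 0.09. Slc1a5 stood at 249.9, 192 and 198 CPM in empty vector and at 637, 656 and 624 in knockout. Of 20 ABC transporters, 14 rose and 1 fell (3 with library totals alone). Abca1, which exports cholesterol, went from 76.1, 85.1 and 68.8 to 265, 258 and 229 CPM, Abca2 rose by 1.21 ± 0.08 and Abcc5, a nucleotide exporter, by 0.88 ± 0.07.

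**Figure D4:**
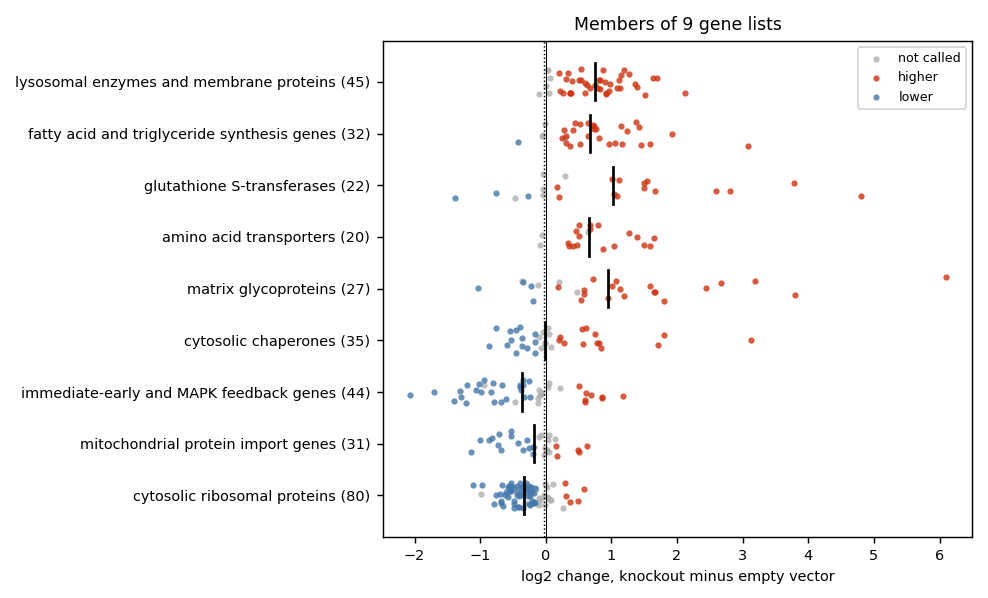
Log2 change of each tested member of 9 gene lists (knockout minus empty vector, horizontal); red and blue points were called higher and lower, grey points not called, black bars mark list medians and the dotted line the median of all genes. Lysosomal genes lie almost wholly to the right, and cytosolic ribosomal proteins mostly to the left of 0, with a median of -0.33.

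Most matrix genes tested rose. Of 27 tested laminins, proteoglycans and other matrix glycoproteins, 19 rose and 4 fell, with a median of 0.94. Spp1, osteopontin, went from 143, 107 and 118 CPM to 775, 787 and 779 CPM (2.67 ± 0.09, edgeR adjusted p of 4e-14). Fbln2, a fibulin of elastic fibres and basement membranes, went from 8.21, 9.39 and 9.39 to 74.2, 90.8 and 81.2 CPM. Ecm1 rose by 2.44 ± 0.11 log2 units and the laminin chain Lamc1 by 1.14 ± 0.07. The decreases were 1 to 4 in number over the alternatives, and Efemp1, a fibulin named after its value was seen, changed by -1.03 ± 0.07.

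Collagens had 11 of 18 tested members higher and none lower (2 without empty-vector replicate 1), out of 44 listed. Col6a1 went from 0.755, 0.964 and 0.401 to 13.8, 16.5 and 15.2 CPM (4.48 ± 0.23) and Col6a2 rose by 3.72 ± 0.27. Col12a1, a fibril-associated chain, rose from 378, 390.2 and 345 to 813, 826 and 754 CPM, and Col4a3 of basement membranes by 1.18 ± 0.07. Of 27 matrix proteases and inhibitors, 18 rose and 3 fell. The gelatinase Mmp2 went from 8.12, 7.97 and 7.18 to 107, 109 and 111 CPM, and the plasminogen activator Plat from 70.9, 64.2 and 58.5 to 285, 327 and 298 CPM. Timp2, an inhibitor of matrix proteases, rose by 0.78 ± 0.06, and Adamts9, a protease of proteoglycans, changed by -1.10 ± 0.07.

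Adhesion receptors changed in opposite directions. Of 17 integrin subunits, 10 rose and 4 fell. Itgb5 and Itga9 have been given, Itga3, a laminin receptor chain, rose by 0.96 ± 0.07, and Itga7 changed by -1.02 ± 0.08. Of 23 cadherins, claudins and desmosomal genes, 9 rose and 9 fell. Cdh1, E-cadherin, rose from 15.4, 9.97 and 10.3 CPM to 96.2, 109 and 93.4 CPM (3.05 ± 0.14, edgeR adjusted p of 2.3e-09) and Krt8 by 0.84 ± 0.08. The tight junction protein Cldn1 fell from 49.1, 52.8 and 49.1 to 16.9, 18.3 and 17.8 CPM, and Esrp2, a splicing regulator of epithelial cells, changed by -0.84 ± 0.09. Among 48 myosins and actin-binding genes, 13 rose and 19 fell. Myo7a rose by 1.46 ± 0.07, while Ezr, which links actin to the membrane, and Cnn2 changed by -1.29 ± 0.06 and -1.08 ± 0.07. Of 15 tubulins, 10 rose (6 with library totals alone) and 1 fell. Tubb3, a neuronal beta-tubulin, went from 0.0644 to 2.00 CPM, and Tubb2a rose by 0.99 ± 0.10.

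In developmental signalling, 22 of 39 TGF-beta and BMP genes rose and 10 fell. Ltbp1, which holds latent TGF-beta in the matrix, went from 2.53, 1.42 and 2.01 CPM to 40.3, 46.3 and 40.6 CPM (4.37 ± 0.14, edgeR adjusted p of 1.1e-14). Ltbp3 rose by 1.72 ± 0.07 and the ligand Tgfb1 by 1.61 ± 0.09, while the ligand Gdf11 changed by -1.22 ± 0.07. Of 9 tested Hedgehog pathway genes, 2 rose and 3 fell, and 4 rose without a filter on low counts. The transcription factor Gli2 went from 0, 0.386 and 0.120 to 2.48, 3.80 and 3.16 CPM, and Gli1, itself a target of the pathway, from 36.3, 60.0 and 48.3 to 20.2, 22.1 and 23.2 CPM. Smo, the signal transducer, rose by 0.36 ± 0.07. Gpr161 was the largest decrease of this list.

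Of 26 Wnt pathway genes, 10 rose, 1 fell (4 with library totals alone) and 15 did not pass. The receptors Lgr6, Fzd2 and Lrp5 rose by 1.79 ± 0.12, 1.13 ± 0.08 and 1.06 ± 0.08, and Rnf43, which removes Frizzled receptors, by 0.82 ± 0.07. Of 21 Notch pathway genes, 8 rose and 7 fell, with a median of 0.12 that was -0.04 with library totals alone. The receptor Notch2 and the inhibitor Numbl rose by 0.84 ± 0.08 and 0.91 ± 0.08. Rbpj, the DNA-binding factor of the pathway, changed by -1.30 ± 0.09 and the ligand Jag1 by -1.02 ± 0.09.

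Secreted angiogenic and growth factors fell more often than they rose, and most large changes were falls. Of 24 tested, 9 rose and 12 fell, with a median of -0.48. Changes of at least 1 log2 unit were upward in 2 members and downward in 7. Angptl2 went from 18.8, 18.3 and 19.5 CPM to 173, 195 and 193 CPM (3.31 ± 0.08, edgeR adjusted p of 2.4e-16). Its relative Angptl4, an inhibitor of lipoprotein lipase, fell from 429, 527 and 485 to 154, 163 and 166 CPM. Adm, the vasodilator adrenomedullin, fell from 234, 268 and 279 to 83.7, 82.5 and 75.3 CPM. Vegfd was the largest rise of the list.

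Semaphorins, plexins, netrins and Slits, which guide axons and vessels, rose in 19 of 27 cases and fell in 1, with a median of 0.58. The ligand Sema3f rose by 1.94 ± 0.10, the receptor Nrp1 by 2.13 ± 0.10 and Sema4b by 1.03 ± 0.08. Sema3e was the member that fell, from 11.01, 11.4 and 10.3 to 1.78, 2.97 and 1.85 CPM; with library totals alone 3 fell. Of 17 receptor tyrosine kinases, 9 rose and 5 fell (3 without knockout replicate 3 and with DESeq2). The hepatocyte growth factor receptor Met fell from 93.0, 85.3 and 85.4 to 38.0, 34.9 and 30.4 CPM. The platelet-derived growth factor receptor Pdgfrb rose by 1.09 ± 0.09, the collagen receptor Ddr1 by 0.71 ± 0.07 and Erbb2 by 0.75 ± 0.08. Among 11 Eph receptors and ephrins, 5 rose and 2 fell, with Ephb4 at 0.71 ± 0.08, Epha8 at 0.94 ± 0.13, the ligand Efna2 at 1.68 ± 0.21 and Epha2 at -0.60 ± 0.08.

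Of 38 interleukin and TNF superfamily receptors, 19 rose and 10 fell. Il4ra, the chain that pairs with Il13ra1, rose from 8.88, 8.74 and 9.51 CPM to 34.9, 36.3 and 31.8 CPM. Tnfrsf21, a death-domain receptor, fell from 79.1, 76.5 and 83.7 to 15.6, 16.2 and 13.2 CPM (-2.43 ± 0.09, edgeR adjusted p of 3.1e-14). Tnfrsf1b, the second TNF receptor, rose by 1.44 ± 0.08. Of 14 tested complement genes, 7 rose and 3 fell (5 with library totals alone), with a median of 0.79. The C1 proteases C1ra and C1s1 rose by 1.20 ± 0.07 and 1.28 ± 0.09, and clusterin (Clu) by 1.15 ± 0.07.

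Growth-signal genes were mostly lower. Of 44 immediate-early and MAPK feedback genes, 25 fell and 8 rose, with a median of -0.37. Spry1, an inhibitor of receptor tyrosine kinase signalling, fell from 37.7, 32.3 and 32.7 CPM to 10.9, 9.50 and 10.9 CPM (-1.71 ± 0.10, edgeR adjusted p of 3.6e-11). The MAP kinase phosphatase Dusp4 changed by -1.22 ± 0.08 log2 units, and Srf, the serum response factor, by -0.94 ± 0.06. Myc fell from 528, 590.2 and 597 to 259, 236 and 255 CPM. Of 20 Yap-responsive genes, 14 fell and 2 rose. Ankrd1 fell from 165, 176 and 170.4 to 74.5, 72.8 and 72.6 CPM, and the kinase Nuak2, tissue factor (F3) and Gadd45a changed by -1.22 ± 0.07, -2.07 ± 0.14 and -1.29 ± 0.09.

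Of 44 DNA replication genes, 21 fell and 12 rose. Orc2, of the origin recognition complex, fell from 129.5, 131 and 135 CPM to 56.7, 61.2 and 60.0 CPM, and the primase Prim1 changed by -0.69 ± 0.07. The helicase subunit Mcm4 and thymidine kinase Tk1 rose by 0.90 ± 0.07 and 0.88 ± 0.09. Of 20 circadian clock genes, 5 rose and 8 fell; Tef rose by 0.92 ± 0.06 and the repressor Nfil3 changed by -0.72 ± 0.07, Csnk1e by -0.48 ± 0.06 and Clock by -0.40 ± 0.06.

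Cytosolic chaperones were split, with 13 of 35 higher and 14 lower. Hspa1b, the stress-induced Hsp70, went from 8.83, 8.04 and 9.11 CPM to 69.5, 80.0 and 78.0 CPM (3.12 ± 0.10, edgeR adjusted p of 8.3e-15), with reads that may be shared with Hspa1a. Hspa8, the constitutive Hsp70, rose from 491, 372 and 420.2 to 1330, 1388 and 1468 CPM and its cochaperone Bag3 by 0.81 ± 0.07. Cct6a, a subunit of the TRiC chaperonin that folds actin and tubulin, fell from 373, 368 and 365 to 206, 197 and 206 CPM. In rescue Hspa1b stood at 52.4 CPM and Hspa8 at 1416.

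Of 31 genes of folding in the endoplasmic reticulum and the unfolded protein response, 19 rose and 8 fell (5 with RLE size factors, with DESeq2 and without knockout replicate 3). The cochaperone Dnajb11 rose from 184, 165 and 166 CPM to 421, 417 and 394 CPM and Sdf2l1 by 0.62 ± 0.06. Atf6 and Ern1, which are 2 of the sensors of the response, changed by -0.92 ± 0.07 and -0.79 ± 0.08. Their chaperone Hspa5 was among the losses above. The integrated stress response lowers translation through eIF2 alpha and raises Atf4. Of its 29 genes 12 rose and 10 fell, with a median of 0.08 that was -0.07 with library totals alone. Atf3 fell from 276, 274 and 302 to 97.1, 100.1 and 99.5 CPM (-1.52 ± 0.08, edgeR adjusted p of 9.3e-12) and Cebpg changed by -0.86 ± 0.06. Atf5 rose from 141, 114 and 116 to 319, 331 and 368 CPM and the lipoprotein receptor Vldlr by 1.27 ± 0.08.

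Cytosolic aminoacyl-tRNA synthetases, which load amino acids onto tRNAs, had 10 of 20 members lower and 4 higher. The rises numbered 2 with library totals alone, with only the 6 libraries in the model, and without empty-vector replicate 2 or 3 or knockout replicate 2 or 3. Dars and Nars changed by -0.87 ± 0.06 and -0.68 ± 0.07, and Qars and Sars by 0.77 ± 0.07 and 0.75 ± 0.08. Of the 17 mitochondrial synthetases 8 fell and 5 rose; the rises ran from 1 to 3 without empty-vector replicate 1 or 3, without knockout replicate 1 or 3, without a filter and with library totals alone. The list median was 0.01, beside -0.02 over all tested genes. Iars2, Mars2, Tars2 and Nars2, the 4 members with the smallest adjusted p, changed by -0.79 ± 0.07, -0.96 ± 0.09, -0.64 ± 0.07 and -0.91 ± 0.11.

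Among nuclear genes that serve mitochondria, several lists had more members lower than higher. Of 13 mRNAs of the mitochondrial genome, 7 rose and none fell; mt-Nd1 went from 2131, 1412 and 2153 CPM to 8317, 7350 and 6046 CPM, beside the higher mitochondrial share of these libraries. Of 32 genes of mitochondrial DNA maintenance and expression, 18 fell and 4 rose, with a median of -0.27. Ppargc1a, the coactivator PGC-1 alpha of mitochondrial biogenesis, fell from 9.59, 12.4 and 14.3 to 3.43, 2.23 and 1.90 CPM (-2.29 ± 0.20, edgeR adjusted p of 3.7e-08). Pnpt1, which degrades mitochondrial RNA, fell from 92.2, 102 and 103 to 47.6, 51.9 and 52.6 CPM. The protease Clpp and the tRNA-processing enzyme Elac2 changed by -0.50 ± 0.06 and -0.47 ± 0.06.

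Of 31 mitochondrial import genes, 15 fell and 5 rose (3 without empty-vector replicate 2, without knockout replicate 1 or 3, without a filter and with library totals alone). Tomm20, a receptor of the outer membrane, fell from 422, 491 and 519.9 CPM to 257, 267 and 267 CPM, and Chchd4 and Timm8a1 of the intermembrane space changed by -0.69 ± 0.07 and -0.83 ± 0.09. Hspa9, the motor of import into the matrix, was given above. Of 24 genes of mitochondrial dynamics and mitophagy, 7 rose and 8 fell. With library totals alone 4 rose and 15 fell, and without a filter 4 rose. The inner-membrane protease Yme1l1 fell from 317, 361 and 361 to 166, 169.5 and 178 CPM, and the cristae protein Immt and the transport adaptor Rhot1 changed by -0.66 ± 0.06 and -0.60 ± 0.06. The mitophagy kinase Pink1 rose by 0.71 ± 0.09. Of 40 carriers of the Slc25 family, 13 rose and 17 fell. Of 77 mitochondrial ribosomal proteins, 15 rose (25 without empty-vector replicate 1, 8 with library totals alone) and 27 fell (41 with library totals alone). Mrps22 fell from 61.7, 60.2 and 62.9 to 26.8, 26.8 and 27.5 CPM, and Mrps6 rose by 0.86 ± 0.08.

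Of 80 genes of cytosolic ribosomal proteins, 56 fell and 5 rose (2 with library totals alone), with a median of -0.33. Rpl12 went from 814, 812 and 879 CPM to 424, 418 and 429 CPM (-0.98 ± 0.07, edgeR adjusted p of 4.2e-10) and Rpl3 from 891, 968 and 1030 to 582, 544 and 579 CPM. Ribosomal protein genes have many processed pseudogenes that can share reads. Of 37 proteasome subunits, 23 fell and 9 rose. Psmc6 and Psmd7 of the regulatory particle changed by -0.66 ± 0.06 and -0.47 ± 0.06, while Psma5 rose by 0.73 ± 0.06 and the immunoproteasome subunit Psmb8 by 0.77 ± 0.07. Genes named Zfp, matched by symbol and mostly zinc finger transcription factors, had 125 of 290 members lower and 23 higher (11 with library totals alone, 15 without a filter), with a median of -0.29. Zfp930 and Zfp568 changed by -1.33 ± 0.10 and -0.79 ± 0.07, and Zfp618 went from 2.58, 2.77 and 2.73 to 0.127, 0.330 and 0.169 CPM.

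Kidney transcription factors rose in 8 of 19 cases and fell in 10, and the rises numbered 4 with library totals alone and 5 without empty-vector replicate 3 or knockout replicate 3. Pax8, a lineage factor of the renal epithelium, fell from 232, 240.4 and 237 CPM to 106, 92.2 and 97.9 CPM (-1.26 ± 0.07, edgeR adjusted p of 1.6e-11). Arnt, the partner of hypoxia-inducible factors, changed by -0.47 ± 0.07, and Kdm5c and Sim1 by 0.50 ± 0.07 and 0.56 ± 0.09. Only 8 of 19 renal tubule markers could be tested, of which 6 rose and 2 fell. Pax8 is also in this list and was 1 of the 2 that fell. Cdh16, kidney-specific cadherin, rose from 399, 280.3 and 277 to 642, 744 and 725 CPM, the water channel Aqp2 from 0.666, 0.193 and 0.682 to 5.72, 7.68 and 6.66 CPM and the anion exchanger Slc4a1 by 2.51 ± 0.22. The segment markers Slc34a1, Umod and Slc12a1 had at most 2 counts in any of the 6 libraries. Of 27 Hox genes 8 rose (5 with library totals alone) and 3 fell (6 with library totals alone, 1 without empty-vector replicate 2 or knockout replicate 2), with Hoxa10 at 0.58 ± 0.08 and Hoxb9 at -0.36 ± 0.06. Of 12 imprinted genes 5 rose and 2 fell (1 with the filter of 1 CPM and without knockout replicate 3), with Igf2r at 1.11 ± 0.08, Slc22a18 at 1.08 ± 0.16 and Peg13 at 2.48 ± 0.38.

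Markers of other cell types were mostly at or near 0. Of 18 leukocyte markers 5 could be tested and all 5 rose, with summed levels of 78.8 to 84.5 CPM in empty vector and 215 to 231 in knockout. Most of that sum was Cd68, a lysosomal membrane protein, which went from 72.2, 79.1 and 77.6 CPM to 208, 213 and 194 CPM. Lyz2 rose by 2.96 ± 0.22, Cd79b by 3.27 ± 0.31 and Csf1r by 1.83 ± 0.25. No library of the 6 held more than 2 counts of Ptprc, Cd3e, Itgam, Adgre1 or Tyrobp, which mark leukocytes or subsets of them. Of 16 endothelial and fibroblast markers 3 could be tested: Col1a1 (1.64 ± 0.20) and Pdgfrb rose, and Pecam1 did not pass (0.43 ± 0.46). Without a filter on low counts 4 of these markers were higher, as they were without empty-vector replicate 2. Kdr, Cdh5, Dcn and Lum had at most 1 count in any of the 6 libraries.

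Genes were also grouped by position. Among nuclear chromosomes, chromosome 16 had the highest median change, 0.25, with 50.0% of its 420 tested genes higher and 13.8% lower. Chromosome 13 had the lowest, -0.20, with 19.4% of 485 genes higher and 41.9% lower, followed by chromosome 18 at -0.16 and the X at -0.13. Restricted to genes of at least 10 CPM, the median was 0.24 for chromosome 16, and the lowest were those of chromosome 18 (-0.225) and chromosome 13 (-0.217). In single libraries, set against the empty-vector mean, the median of chromosome 16 was 0.25, 0.23 and 0.26 in knockout and -0.04, -0.06 and -0.06 in rescue. On chromosome 13 it was -0.21, -0.19 and -0.20 in knockout and between -0.06 and -0.03 in rescue. On chromosome 18 it was -0.224, -0.231 and -0.203 in knockout and between -0.057 and -0.001 in rescue. The knockout libraries lay apart from all others on these 3 chromosomes. DNA copy number was not measured.

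**Figure D5:**
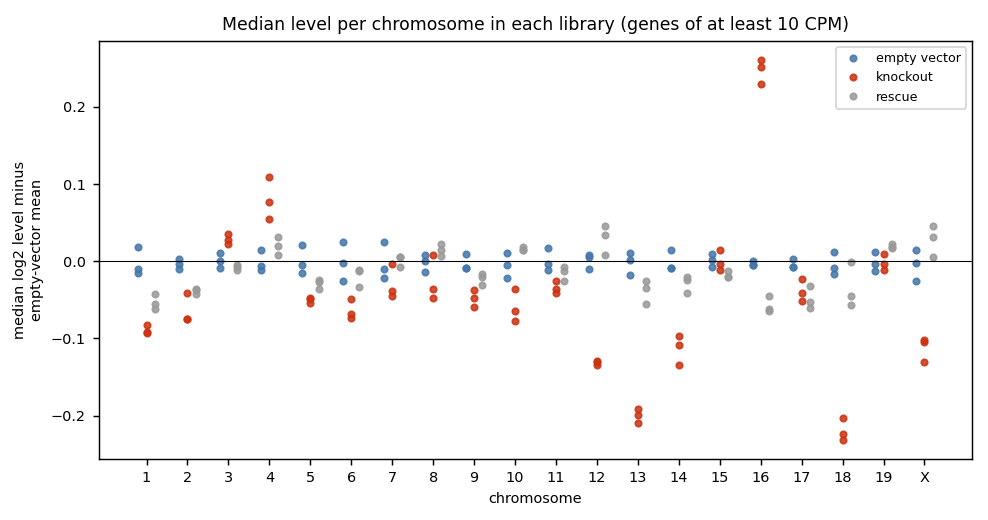
Median over genes of at least 10 CPM of the log2 level minus the empty-vector mean (vertical) for each nuclear chromosome (horizontal) in each of 9 libraries. The 3 knockout libraries stand highest on chromosome 16 (0.23 to 0.26) and at -0.19 to -0.23 on chromosomes 13 and 18, while empty-vector and rescue libraries lie close to 0.

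Neighbouring genes moved together in some places. Over 12913 windows of 20 tested genes, the 1st and 99th percentiles of the median change were -0.46 and 0.56. The highest window, chr3:107741048-108562466 from Csf1 to Tmem167b, holds the Gstm cluster and had a median of 0.94 with 16 genes higher and 2 lower. The lowest, chr17:21516713-22817741, had a median of -0.70 with 1 higher and 14 lower. The longest run of called neighbours in 1 direction held 18 genes, all higher, from Cenpe to Adh5 at chr3:135212537-138455499. The next held 10 genes, all lower, from Zbtb39 to Timeless at chr10:127739538-128252941. It lies close to the Cas9 cut in Ndufa4l2, at 127514996 to 127514997 of the same chromosome. Atp5b, given above among the losses, lies inside this run. Il23a, Rpl41 and Itga7, named here only because they were given above as lower, start beyond its end at 128296139, 128548114 and 128933818. Rises in the same stretch were not counted, and a link to the edit was not tested. Over the whole of chromosome 10, 33.4% of 649 tested genes were higher and 32.5% lower, with a median of -0.013.

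In all, 5 motifs were searched, on both strands in the same windows. The interferon-stimulated response element was found in 5.02% of promoters of genes higher by at least 1 log2 unit, in 1.91% of those lower by at least 1 and in 2.97% of all tested. Over higher genes of any size it was found in 3.38% and over lower ones in 2.76%. The ATF4 composite element TGATGNAAT was found in 0.31%, 1.44% and 0.43% of the promoters of genes higher by at least 1, lower by at least 1 and all tested, which is 3, 6 and 52 promoters. The NF-kappa-B motif was found in 0.41%, 0.72% and 0.46%, or 4, 3 and 55 promoters. The antioxidant response element was found in 13.11% of promoters of genes higher by at least 1 log2 unit and in 12.92% of those lower by at least 1.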

How the data were processed

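Poly(A) RNA of 9 RENCA libraries was sequenced on Illumina instruments, per the labels. The deposited table holds whole-number read counts per gene, not normalized, and FPKM values per library, per the file headers; FPKM values were not tested. Per the submitters' processing notes, the build was mm10 and the tools listed were TopHat2, HISAT2, HISAT and CASAVA, without roles; the read counter and its strand setting are not given there. The labelled molecule is genomic DNA, while the protocols describe mRNA libraries, and the series text speaks of fewer knockout replicates than the 3 listed and used.

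The test was that of edgeR 4.0.16 (R 4.3.3). Of 54532 genes, filterByExpr kept 13326. TMM scaling and a robust quasi-likelihood fit of 1 mean per group over all 9 libraries preceded the F-test of knockout minus empty vector, with p-values adjusted by Benjamini-Hochberg across every tested gene and a threshold of 0.05. The minimum-size test was glmTreat at 1.5-fold. CPM use TMM-scaled library sizes. The SE of a log2 change is its size over the root of its F value. Every pair of libraries within a group differed beyond sampling noise, at 3.64 to 20.25 chi-square units for each degree of freedom. Tested on simulated counts of 13326 genes for this comparison, it found 79.1% of the 1.5-fold changes and 98.5% of both the 2-fold and the 4-fold changes. Of its 198 calls there, 14 were false. The data themselves gave 8078 calls, and recovery and false calls with so many calls were not tested.

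The comparison, lists and rules were chosen with earlier results of these data known. Named genes were Ndufa4l2 and Ndufa4, the 12 largest log2 increases and decreases (named protein-coding genes, at least 5 CPM in the higher group, no overlap), the 10 largest gains and losses in mean CPM outside the mitochondrial genome, the 8 highest genes switched on or off, and up to 4 members of each list by adjusted p. Other names are said to be chosen after their values were seen, or complete a small count. The rule also chose genes not reported here. Promoter sequences are from RefSeq and transcripts from GENCODE M21, both GRCm38. Gene lists had no test of their own. Alternatives were other scalings (RLE, library totals, no mitochondrial genes), DESeq2 1.42.0, other filters, 6 libraries only, a replicate block and leaving out each library.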

Additional observations from a re-analysis of the deposited data

How the results depend on the processing

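Depth limits genes near 1 CPM, such as Ndufa4l2, and leaving out a library leaves 2 in its group. Besides Ndufa4l2, 231 named genes (the called ones and Ndufa4) were followed through the alternatives, of which 229 kept direction and call in each one that tested them. Gm7535 did not pass without empty-vector replicate 3 (adjusted p of 0.057), and Ndufa4 passed without empty-vector replicate 1 and had a log2 change of -0.03 with library totals alone. No gene called in the reported fit was called in the opposite direction in any alternative. Leaving out 1 library at a time gave 7361 to 8426 called genes, 3587 to 4209 higher and 3774 to 4217 lower. The log2 change of Ndufa4l2 then ran from -0.68 to 0.01 (0.015 without knockout replicate 3), never past the threshold. DESeq2 called 3929 higher and 3681 lower, and RLE size factors 4142 and 3868. With library totals alone, 839 genes were higher and 835 lower by at least 1 log2 unit, and 967 higher and 1266 lower beyond 1.5-fold. The log2 shift this scale gave was -0.15, and its cause was not tested. Counting motifs only upstream of the start lowered the shares over all tested promoters to 11.78% for the antioxidant response element, 4.91% for the CLEAR-type E-box and 2.55% for the interferon element, since the window is shorter. Of the switched genes, 13 were on and 3 off with CPM of library totals, an alternative chosen after seeing the data. Replicate numbers did not pair the samples: deviations of same-numbered libraries correlated at -0.039, 0.045 and -0.007. With the replicate number as a block, 3852 genes were higher and 4038 lower.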
